A study of Saccharomyces cerevisiae with 8 samples.

Results

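The transcripts of 10 heat shock and chaperone genes of Saccharomyces cerevisiae were compared between iron-poor and iron-rich cultures. The genes, HSP12, HSP26, HSP30, HSP42, HSP78, HSP82, HSP104, SSA1, SSA3 and SSA4, were chosen by symbol, and each matched 1 probe set among the 5449 yeast genes on the array. All 10 had a signal above background on each of the 8 arrays, so each was tested. Strain DBY7286, for which no further genotype is given in the labels, was grown in minimal medium at pH 6.1 and 30 °C, and harvested in mid-log phase after roughly 18 h (A600 of 0.5). The medium of both groups contained the ferrous iron chelator Ferrozine at 1 mM, copper sulfate at 1 µM and the supplements that the strain's auxotrophies call for. The 4 low-iron cultures received 10 µM ferrous ammonium sulfate and the 4 high-iron cultures 300 µM, and each of these independent cultures gave 1 array. No culture in the series was heated, so the heat shock genes were measured at the ordinary growth temperature of yeast.

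Heat shock proteins hold unfolded proteins in solution, refold them or pull them out of aggregates, and many are also made in unstressed cells. In yeast many of their genes answer to Hsf1, which binds heat shock elements, or to Msn2 and Msn4, which bind the stress response element. Msn2 and Msn4 act in many stresses and when glucose runs low. Some of the genes respond to both kinds of factor, while HSP12 is a standard reporter of Msn2 and Msn4. The study asked what iron deficiency does to yeast metabolism, and none of the 10 proteins is known to hold iron.

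Signals are MAS5 intensities on a linear scale, deposited at a common level (each array's mean, trimmed by 2% at both ends, was 500.2). The maximum of an array was between 6597 and 7706, and the 10 genes read 71.0 to 3006, well under these maxima. As a check of the iron labels, FIT1, a cell wall mannoprotein of siderophore iron uptake, read 5569 ± 482 in low iron against 113 ± 55.8 in high iron (SD, n = 4). Over all genes 42.5% of the calls were higher in low iron, a share that became 53.2% under quantile normalization. The second principal component of all genes, with 12.1% of the variance, set low-iron arrays 1 and 2 apart from low-iron arrays 3 and 4. Where leaving out either pair ended or made a call of a named gene, or moved a called value by over 1.5 times, the value without it is given. Such a fit keeps 2 of the 4 low-iron arrays, and the pairs were seen in these same data. Its adjusted p thus describes the kept arrays only.

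Of the 10 heat shock genes, 5 fell in low iron and 1 rose, while 4 did not pass the test (limma, Benjamini-Hochberg adjusted p under 0.05). Over all 5412 genes tested 39.4% were called, 22.7% as lower and 16.8% as higher. HSP12 fell 6.11-fold, and HSP42, SSA4, HSP82 and SSA3 fell by 1.28-fold to 1.65-fold. HSP78, the mitochondrial disaggregase gene, rose 1.49-fold. HSP26, HSP30, HSP104 and SSA1 did not pass. The median log2 change of the 10 genes was -0.24, against -0.02 over all genes tested. In 6 of the 10 genes, the same 6 that were called, the low-iron and high-iron arrays did not overlap, beside 38.5% of all genes. The array is a bulk measure, so fewer cells with a transcript and less transcript per cell cannot be told apart.

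**Figure D1:**
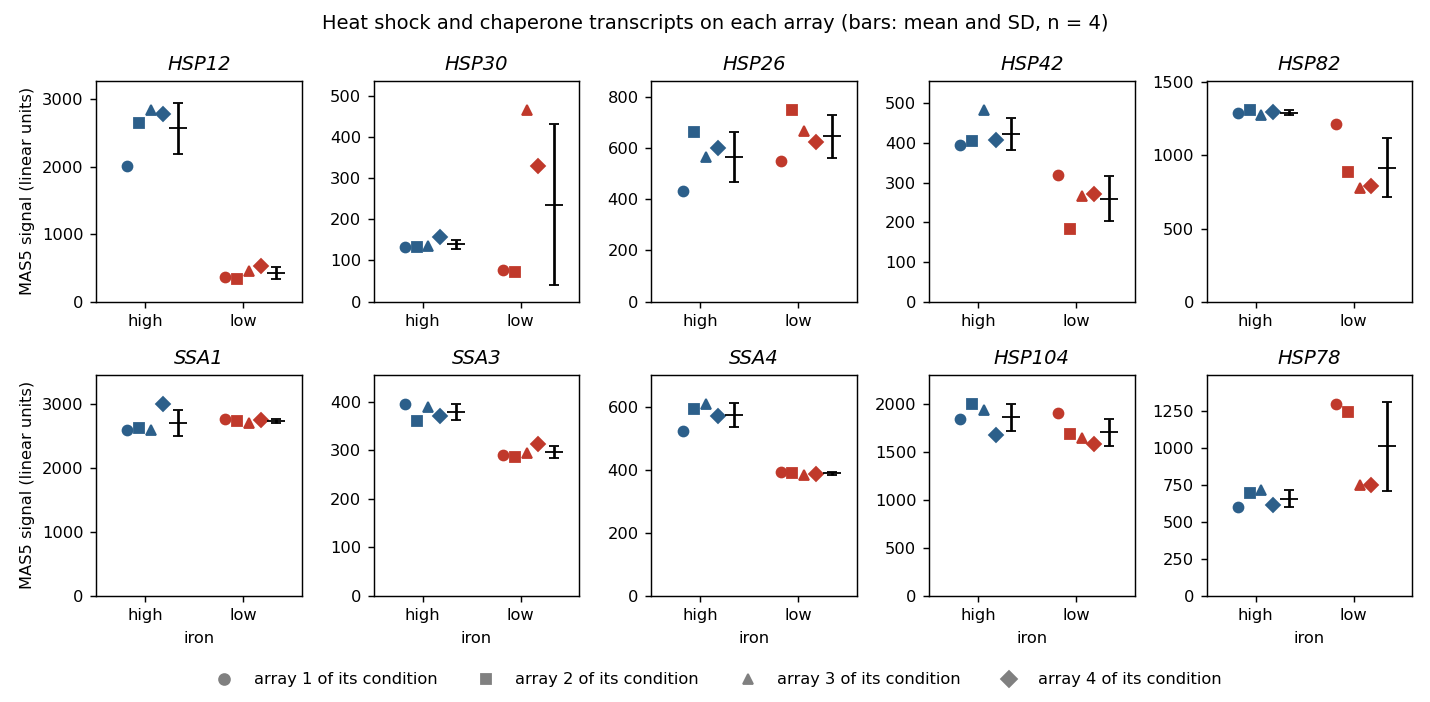
MAS5 signal in linear units of the 10 genes in high-iron (blue) and low-iron (red) cultures, 1 symbol per array with the mean and SD (n = 4) beside it. HSP12 sits at 331 to 535 in low iron and 2013 to 2844 in high iron, and HSP30 lies on both sides of its high-iron values.

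**Figure D2:**
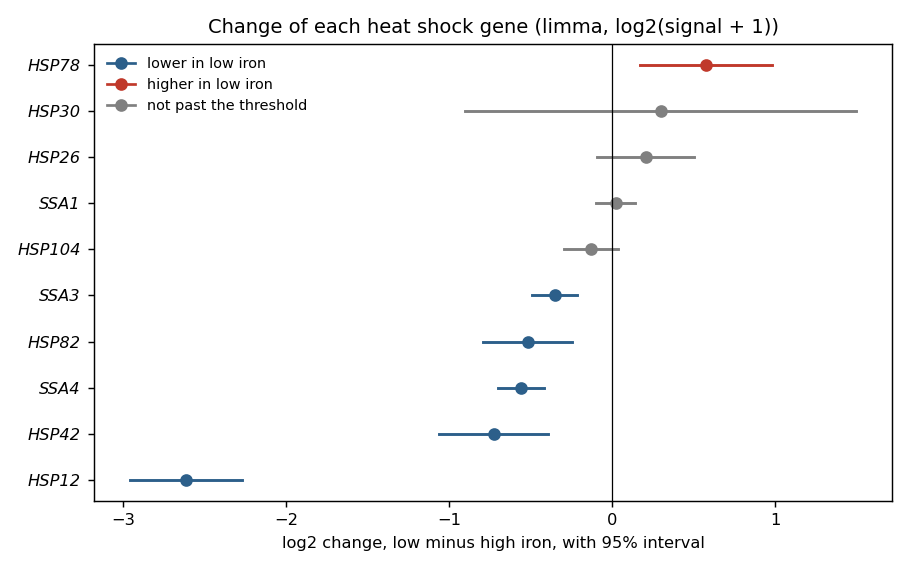
Log2 change of each gene, low minus high iron, with its 95% interval from limma over all 8 arrays. HSP12 lies at -2.61, the other 4 genes that fell between -0.73 and -0.35, and HSP78 at 0.58, while the interval of HSP30 runs from -0.90 to 1.5.

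Among the membrane-associated stress proteins, HSP12 carried the largest change of the 10. HSP12 (YFL014W) encodes a small hydrophilic protein that associates with membranes and accumulates in stress and in stationary phase. It read 368, 331, 459 and 535 on low-iron arrays 1 to 4. On the high-iron arrays it read 2013, 2649, 2844 and 2778. Every low-iron value lay below every high-iron value by a wide margin, and the means were 423 ± 92.0 and 2571 ± 381 (SD, n = 4). The log2 change was -2.61 ± 0.16 (SE; adjusted p = 8.38e-07 by limma), and it ranked 9 among the falls of 5412 genes. It was -2.36 without low-iron arrays 1 and 2 and -2.86 without low-iron arrays 3 and 4.

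HSP30 (YCR021C), which encodes a plasma membrane protein that restrains the proton pump Pma1, had no common direction in low iron. On low-iron arrays 1 and 2 it read 77.8 and 71.0, below all high-iron arrays. On low-iron arrays 3 and 4 it read 466 and 328, above all of them. The high-iron arrays lay close together, at 134, 132, 135 and 157. Over all 8 arrays the log2 change was 0.30 with a 95% interval from -0.90 to 1.5 (limma adjusted p = 0.687). It was 1.49 without low-iron arrays 1 and 2 (adjusted p = 1.85e-05) and -0.89 without low-iron arrays 3 and 4 (adjusted p = 1.57e-04). Each fit keeps only 2 low-iron arrays, both on the same side, so its small p leaves out most of the low-iron spread. The mean of the 4 low-iron arrays, 236 ± 195 (SD, n = 4), thus describes none of them. The highest low-iron value was 6.56 times the lowest, and 99.9% of tested genes had a narrower spread across these arrays. In high iron this ratio was 1.19.

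The 2 small heat shock proteins, which hold unfolded proteins until other chaperones refold them, differed from each other. HSP42 (YDR171W), active in unstressed cells and a sorter of aggregates in the cytosol, read 318, 182, 267 and 270 on the low-iron arrays. It read 394, 405, 483 and 406 on the high-iron arrays, all above the low-iron ones. The mean was 259 ± 56.7 in low iron and 422 ± 41.1 in high iron (SD, n = 4), and the difference was a log2 change of -0.73 ± 0.15 (SE; adjusted p = 0.00357 by limma). HSP26 (YBR072W), which is assembled into large particles that open on heating, read 547, 749, 665 and 625 in low iron and 432, 661, 563 and 599 in high iron. These groups overlapped, and the log2 change of 0.21 had a 95% interval from -0.09 to 0.50 (adjusted p = 0.248). The change of HSP26 exceeded that of HSP42 by 0.93 ± 0.29 on the log2 scale (SE). The two-sided exact permutation p of this pair was 0.0286, the smallest that 4 against 4 arrays allow. Adjusted over the 5 pairs of related genes compared in this way it was 0.0476. The adjusted value depends on how many of the chosen pairs reach that smallest p, and the test was chosen after the data were seen.

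HSP82 (YPL240C) encodes the stress-inducible form of Hsp90, which matures kinases and receptors, and it fell in low iron. Its signal was 1214, 886, 776 and 793 on the low-iron arrays and 1287, 1312, 1274 and 1296 on the high-iron arrays. The high-iron values spanned a ratio of only 1.03, whereas low-iron array 1 lay just below them and the other 3 well below. The log2 change was -0.52 ± 0.12 (SE; adjusted p = 0.00733 by limma). It was -0.72 without low-iron arrays 1 and 2 and -0.32 without low-iron arrays 3 and 4, a call in both cases (adjusted p = 4.5e-06 and 0.0344). HSC82, the paralogue that is made at a high level without stress, read 5190 ± 230 in low iron and 4912 ± 264 in high iron (SD, n = 4) and did not pass (log2 change 0.08; adjusted p = 0.218). The change of HSP82 lay 0.60 ± 0.13 below that of HSC82 (log2, SE; exact permutation p = 0.0286, adjusted over the 5 pairs 0.0476). HSC82 reads closer to the maximum of the arrays, where a change may be compressed. The probes of these 2 paralogues may also share target RNA, which was not tested.

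Of the 3 cytosolic Hsp70 genes among the heat shock genes chosen by symbol, 2 fell, beside 22.7% of all genes. Of the other cytosolic Hsp70 genes, described below, SSA2 fell slightly, while SSB1 and SSB2 did not pass. SSA3 and SSA4, the forms that are induced by stress and in late growth, were lower in low iron, and SSA1, made in growing cells and further induced by heat, did not pass. SSA4 (YER103W) read 394, 391, 385 and 387 in low iron and 524, 593, 610 and 570 in high iron. The low-iron arrays agreed closely for SSA4 and all lay below the high-iron ones. Its log2 change was -0.56 ± 0.06 (SE; adjusted p = 7.89e-05 by limma).

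SSA3 (YBL075C) read 289, 287, 295 and 314 in low iron against 396, 360, 389 and 370 in high iron. Its groups did not overlap either, and its log2 change was -0.35 ± 0.06 (SE; adjusted p = 0.00152 by limma). SSA1 (YAL005C) read 2770, 2731, 2704 and 2761 in low iron and 2599, 2622, 2595 and 3006 in high iron. High-iron array 4 alone lay above the low-iron arrays of SSA1 and the other 3 lay below, so the groups overlapped. The log2 change of SSA1 was 0.02 with a 95% interval from -0.10 to 0.14 (adjusted p = 0.771), so a difference of the size of that of SSA3 lies outside this interval.

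SSA2, a near-identical copy of SSA1 with its own probe set, had a log2 change of -0.11 (limma adjusted p = 0.0329), with 5691 ± 156 in low iron and 6142 ± 175 in high iron (SD, n = 4). Its call was lost in 9 of 19 alternatives (adjusted p up to 0.26), at log2 changes of -0.07 under median centring, -0.12 without low-iron arrays 1 and 2 and -0.10 without low-iron arrays 3 and 4. Under quantile normalization it was -0.18 and called. The signal of SSA2 lies close to the array maxima. The changes of SSA1 and SSA2 differed by 0.13 ± 0.05 and those of SSA3 and SSA4 by 0.21 ± 0.08 on the log2 scale (SE). Neither difference passed (exact permutation p = 0.0857 for each, also after adjustment over the 5 pairs). The probes of so similar genes may share target RNA, so the values of SSA1 and SSA2 may not be fully separate. This was not tested.

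The 2 disaggregases, which thread aggregated proteins through a ring of subunits, did not move alike. HSP78 (YDR258C), the form in the mitochondrial matrix, read 1297, 1244, 751 and 746 on low-iron arrays 1 to 4 and 599, 695, 712 and 613 on the high-iron arrays. Low-iron arrays 1 and 2 were far above the high-iron values of HSP78, and low-iron arrays 3 and 4 only just above. The log2 change was 0.58 ± 0.18 (SE; adjusted p = 0.0288 by limma). It came to 0.20 without low-iron arrays 1 and 2 (adjusted p = 0.0826) and to 0.96 without low-iron arrays 3 and 4 (adjusted p = 3.49e-05). Each of these fits keeps 2 low-iron arrays that read alike, so its p leaves out most of the low-iron spread. Leaving out a single array also ended the call in 5 of 8 cases, with log2 changes of 0.44 to 0.61. These were low-iron arrays 1 and 2, each alone (adjusted p = 0.0517 and 0.0831), and high-iron arrays 1, 2 and 4, each alone (0.0734, 0.0527 and 0.0726).

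HSP104 (YLL026W), the cytosolic disaggregase needed for survival of severe heat, read 1909, 1691, 1644 and 1585 in low iron. In high iron it read 1844, 2004, 1940 and 1680. The groups overlapped, and the log2 change was -0.13 with a 95% interval from -0.29 to 0.03 (limma adjusted p = 0.187). Without low-iron arrays 1 and 2 it was -0.21 and passed the test by a small margin (adjusted p = 0.048). The change of HSP78 exceeded that of HSP104 by 0.71 ± 0.18 (log2, SE; exact permutation p = 0.0286, adjusted over the 5 pairs 0.0476). The size of this difference depended on the low-iron arrays kept. Without low-iron arrays 1 and 2 the changes were 0.20 and -0.21, and without low-iron arrays 3 and 4 they were 0.96 and -0.05.

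The spread among the low-iron cultures thus differed from gene to gene. SSA4 and SSA1 varied by a ratio of only 1.02 from the lowest to the highest low-iron array, SSA3 by 1.10 and HSP104 by 1.20. HSP26, HSP82, HSP12, HSP78 and HSP42 varied by 1.37, 1.56, 1.62, 1.74 and 1.75, and HSP30 by 6.56. Within low iron, the 2 arrays with high HSP30 were those with the lower HSP78 and HSP82 and the higher HSP12. In high iron the ratio was 1.03 to 1.53, widest for HSP26.

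**Figure D3:**
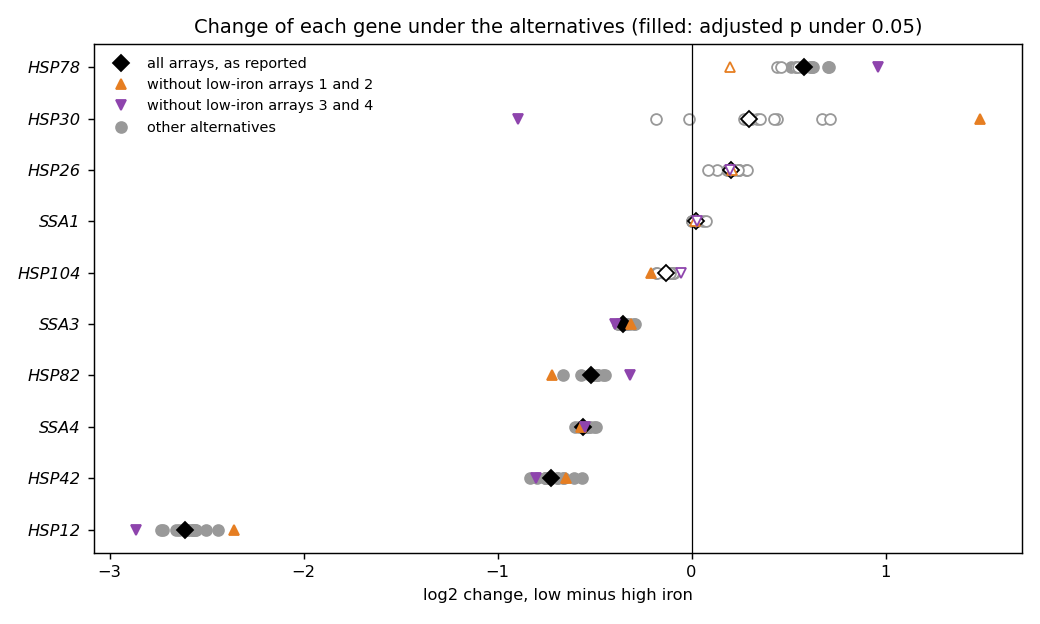
Log2 change of each gene, low minus high iron, over all arrays (black) and under the 19 alternatives, with filled symbols where the adjusted p was under 0.05. The 5 genes that fell stay below 0 and filled, whereas HSP30 runs from -0.89 to 1.49 and HSP78 loses its call in 6 alternatives.

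Of 5 regulator genes 1 rose (20%, beside 16.8% of all genes) and 2 fell (40%, beside 22.7%) at the transcript level. HSF1, the heat shock factor, stood at 485 ± 37.7 in low iron and 360 ± 9.10 in high iron (SD, n = 4) and so rose, with a log2 change of 0.43 ± 0.07 (SE; adjusted p = 8.3e-04 by limma). MSN4 fell from 689 ± 46.5 to 452 ± 91.6, a log2 change of -0.63 ± 0.13 (adjusted p = 0.00417). GIS1, a factor of stationary phase genes, fell too, with a log2 change of -0.34 (adjusted p = 0.00456). Its upstream kinase gene RIM15 had a log2 change of -0.04, and MSN2 one of 0.02 (adjusted p = 0.741 and 0.861). MSN2, like HSP30, lay on both sides of its high-iron values. The log2 change of MSN2 was 0.21 without low-iron arrays 3 and 4 (adjusted p = 0.0169) and -0.16 without low-iron arrays 1 and 2 (adjusted p = 0.0531). These are levels of mRNA, and the activity of Hsf1, Msn2 and Msn4 is set mainly after translation.

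Of 21 genes chosen as other targets of Msn2 and Msn4, 10 fell, 1 rose and 10 did not pass, with a median log2 change of -0.36, where 22.7% and 16.8% of all genes were called lower and higher. YGP1, a secreted glycoprotein of starved cells, fell from 1270 ± 174 to 319 ± 19.1 (SD, n = 4; log2 change -1.98, limma adjusted p = 2.27e-07). CTT1, the cytosolic catalase and a haem protein, fell from 125 ± 4.20 to 32.0 ± 4.26, a log2 change of -1.95, or -0.98 with a pseudocount of 64. DDR2 and HOR7, which encode small related stress proteins, fell by 1.13 and 0.77 on the log2 scale.

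The gene of this list that rose was TPS1, trehalose-6-phosphate synthase, named after its value was seen, with a log2 change of 0.36 (limma adjusted p = 0.026). The TPS1 call ended when low-iron array 2 was left out (adjusted p = 0.0729), and likewise for high-iron arrays 1 and 2, each alone (0.0723 and 0.0667), and for low-iron arrays 1 and 2 together (log2 change 0.19, adjusted p = 0.155).

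**Figure D4:**
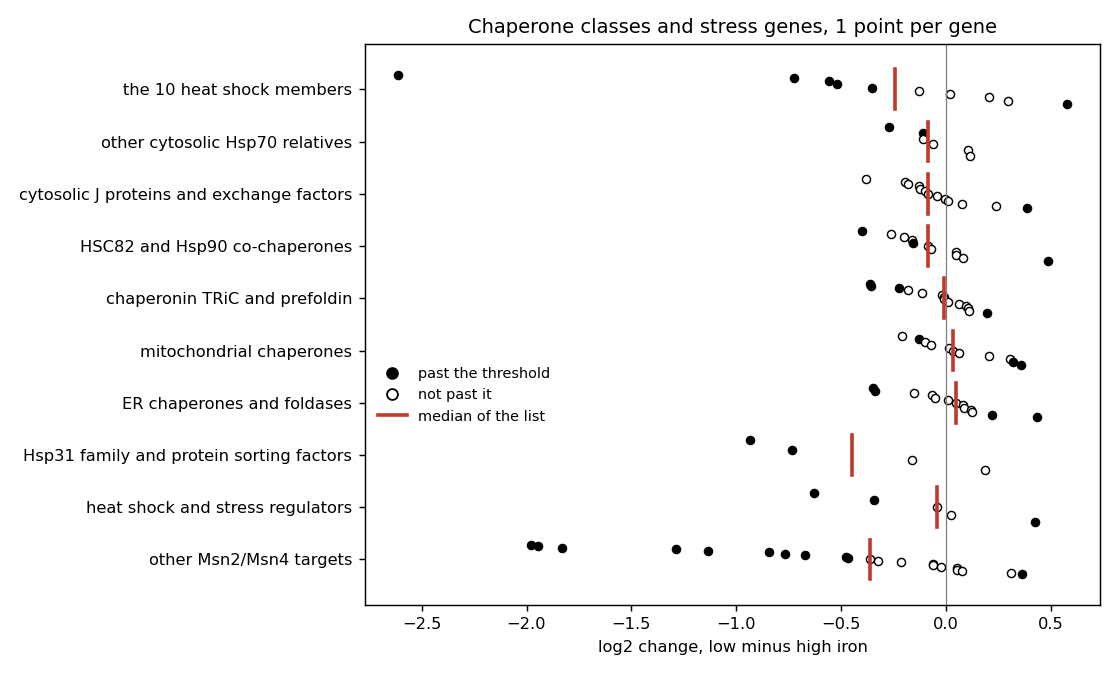
Log2 change, low minus high iron, of each tested gene of the chaperone classes and stress lists, filled where the adjusted p was under 0.05, with the median of each list as a red line. The 10 heat shock genes have a median of -0.24 and the Msn2/Msn4 targets one of -0.36, while the chaperone classes have medians between -0.09 and 0.05, except the Hsp31 family and sorting factors at -0.45 over 4 genes.

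Of 72 tested chaperone genes outside the 10, in 7 classes, 12 fell (16.7%) and 7 rose (9.72%), beside 22.7% and 16.8% over all genes, and the median log2 change was -0.03. None of these calls reached 2-fold in either direction. The count of falls was 7 when either of high-iron arrays 2 and 3 was left out. Under quantile normalization 15 fell and 13 rose, and without low-iron arrays 3 and 4 these counts were 14 and 12. With median centring 8 fell and 9 rose, so the excess of falls over rises depended on the scaling.

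The largest falls among these 72 genes were those of CUR1 and BTN2, related proteins that sort misfolded proteins to deposits together with Hsp42. CUR1 read 152, 98.3, 209 and 196 in low iron against 289, 306, 319 and 294 in high iron, a log2 change of -0.93 ± 0.20 (SE; adjusted p = 0.00418 by limma). Its change was -0.57 without low-iron arrays 1 and 2. BTN2 went from 316 ± 33.6 to 191 ± 30.2 (SD, n = 4), a log2 change of -0.73 ± 0.12 (adjusted p = 0.00103). Both groups of arrays were apart for both genes. HSP31 and SNO4, of the Hsp31 family, did not pass (log2 change 0.19 and -0.16), although HSP31 gained a call in 3 of 19 alternatives. The median of this class was -0.45 over its 4 tested genes, and HSP32 and HSP33 were not analysed here.

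In the Hsp70 system of the cytosol, 2 of the 6 other Hsp70 relatives fell (33.3%, beside 22.7% of all genes). The 2 were SSA2 (above) and SSE2, an exchange factor of the Hsp110 type, which fell by 0.27 on the log2 scale (limma adjusted p = 0.0222). The SSE2 call was lost in 5 of 19 alternatives, one of them without low-iron arrays 3 and 4 (log2 change -0.16). SSB1 and SSB2, the ribosome-bound forms, had log2 changes of 0.11 each and did not pass (adjusted p = 0.0767 and 0.0753), with signals near the array maxima. Without low-iron arrays 3 and 4 both were called, at 0.16 and 0.15. Among 13 J proteins and exchange factors 1 gene rose (7.69%, beside 16.8% of all genes) and 0 fell (beside 22.7%). The called gene was SNL1, an exchange factor at the ER membrane, which rose by 0.39 (adjusted p = 0.00627). YDJ1, the main J protein of the cytosol, had a log2 change of -0.10 (adjusted p = 0.117). JJJ1, a ribosome-linked J protein, read 0.24 on the log2 scale (adjusted p = 0.116) and 0.42 without low-iron arrays 1 and 2, where it was called (0.00482).

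Among HSC82 and the Hsp90 co-chaperones, 2 of 11 genes fell (18.2%, beside 22.7% of all genes) and 1 rose (9.09%, beside 16.8%). CPR7 and CPR6, the cyclophilins that bind Hsp90, fell by 0.40 and 0.15 on the log2 scale (limma adjusted p = 0.0121 and 0.0259), with calls lost in 1 and 7 of 19 alternatives. Without low-iron arrays 1 and 2 CPR7 read -0.31 (adjusted p = 0.0522), and without low-iron arrays 3 and 4 CPR6 read -0.11 (0.12). SGT1, which links Hsp90 to kinetochore and ubiquitin ligase assembly, rose from 340 ± 10.6 to 478 ± 28.6 (SD, n = 4; log2 change 0.49, adjusted p = 2.21e-04). In the chaperonin TRiC and its partner prefoldin 3 of 14 genes fell (21.4%) and 1 rose (7.14%), and all 4 were prefoldin subunits. GIM5, GIM4 and YKE2 fell by 0.36, 0.22 and 0.36, and PAC10 rose by 0.19. Without low-iron arrays 1 and 2 GIM5 read -0.19 and kept its call (adjusted p = 0.0414), while YKE2 at -0.19 and PAC10 at 0.13 did not (0.201 and 0.135). The calls of YKE2 and PAC10 were lost in 11 and 6 of 19 alternatives and that of GIM4 in 1.

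Of 11 chaperones of the mitochondria, the compartment of HSP78, 2 rose (18.2%, beside 16.8% of all genes) and 1 fell (9.09%, beside 22.7%). JAC1, the J protein of iron-sulphur cluster transfer, rose from 130 ± 10.8 to 166 ± 11.1 (SD, n = 4; log2 change 0.36, limma adjusted p = 0.00744). Its Hsp70 partner SSQ1 had a log2 change of 0.21 and did not pass (adjusted p = 0.0503), although it gained a call in 6 of 19 alternatives, such as without low-iron arrays 3 and 4 (0.28). SSC1, the main matrix Hsp70, fell by 0.13 and ZIM17, which keeps Ssc1 soluble, rose by 0.32, with calls lost in 10 and 6 of 19 alternatives. ZIM17 read 0.14 without low-iron arrays 1 and 2 (adjusted p = 0.184) and 0.50 without low-iron arrays 3 and 4, where SSC1 read -0.07 (0.225). In the ER, 2 of 13 genes fell and 2 rose, 15.4% each way. ERO1, the oxidase of disulphide formation, and SIL1, an exchange factor of the ER Hsp70, fell by 0.34 and 0.35 (adjusted p = 6.91e-04 and 0.00255). CNE1, the calnexin gene, and SCJ1, a J protein, rose by 0.44 and 0.22 (adjusted p = 5.27e-04 and 0.00622).

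For 3 of the heat shock genes the transcripts with the most similar pattern were sought, as the Pearson correlation of log2 signals after each condition's mean was subtracted, over 8 arrays. For HSP82 they were RTT109, a histone acetyltransferase gene, PMI40, of mannose phosphate synthesis, and the G1 cyclin gene PCL1 (r = 0.99, 0.99 and 0.99). For HSP12 they were CDS1, TPO2 and XPT1 (r = 0.97, 0.95 and 0.95), and for HSP26 LAA1, DHH1 and LCD1 (r = 0.95, 0.94 and 0.91). Each is the highest of the correlations with all other tested genes over few arrays that share their cultures and scaling, so the values are a description only. HSP82 deviated from its condition mean by -0.02 to 0.02 on the high-iron arrays and by -0.22 to 0.43 on the low-iron arrays (log2). Its correlations thus rest chiefly on the low-iron arrays, and above all on low-iron array 1, where HSP82 deviated by 0.43. RTT109, PMI40 and PCL1 also had their highest low-iron signals on that array. The 3 genes closest to HSP82 fell in low iron, beside 22.7% of all genes. Their log2 changes were -0.65, -0.68 and -0.79 (limma adjusted p = 0.00617, 3.82e-04 and 7.67e-04). RTT109 fell by 0.41 without low-iron arrays 3 and 4. Of those closest to HSP12 only XPT1 was called (log2 change -0.61, adjusted p = 0.00111). CDS1 gained a call in 6 of 19 alternatives, such as without low-iron arrays 3 and 4 (-0.41), and TPO2 without low-iron arrays 1 and 2 (0.36). The genes closest to HSP26 had log2 changes between -0.21 and 0.02 and did not pass.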

How the data were processed

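RNA of 8 cultures, 4 per iron level, was hybridised to Affymetrix yeast arrays, 1 per culture. The authors deposited MAS5 signal intensities on a linear scale, per the submitters' processing notes; their background and scaling settings are not stated there. Of 10928 probe sets, 5498 matched a yeast gene (5449 genes) through the platform table and RefSeq R64, used for names only. The brightest probe set stood for a gene with several. Genes were tested when their mean exceeded 5.48, the 95th percentile of 1746 probe sets with other, S. pombe style, symbols. This left 5412. Low and high iron were compared on log2(signal + 1) with limma 3.58.1 in R 4.3.3 (intensity trend, no covariate, two-sided), adjusted over all genes tested by the Benjamini-Hochberg method. Fold changes are on that scale and understate changes of dim genes. The procedure was tested on simulated data. Pairs of related genes were compared by exact permutation of the arrays, a test chosen after the data were seen. The 10 genes and all lists were chosen with earlier results of these data known. Named were the 10 genes, HSC82, SSA2, HSF1, MSN2, MSN4, FIT1, up to 4 genes per list with the lowest adjusted p, 3 correlates for each of 3 genes, and TPS1. Alternatives were pseudocounts of 16 and 64, quantile and median scaling, no filter or the 99th percentile, no trend, array weights, the mean of probe sets, leaving out each array, and leaving out low-iron arrays 1 and 2 or 3 and 4. The number of arrays limits the precision. Figures were drawn with matplotlib 3.10.9.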

Additional observations from a re-analysis of the deposited data

Results flagged for a closer look

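In 12 of 118 sets of 4 arrays (59 named genes in each condition) 1 array stood far from the other 3, with a gap over Dixon's critical value at 95%. Chance gives this in about 1 in 20 independent sets. These sets share the same arrays, and many of the genes were named for their values in these data. No excess over chance can thus be read from the count, and no cause was tested. Of the 10 heat shock genes this held for HSP30 on high-iron array 4 (signal 157), HSP42 on high-iron array 3 (483) and SSA1 on high-iron array 4 (3006). The low-iron values of HSP30 and HSP78 lie in pairs, not with 1 array apart, and did not meet this measure. Other chaperones with such an array were SSB1 on low-iron array 3 (6463), CPR6 on high-iron array 4 (2593), YKE2 on high-iron array 1 (927), JAC1 on high-iron array 3 (146) and SSQ1 on high-iron array 3 (309.2). The remaining ones were CTT1 on low-iron array 4 (25.6) and, all on high-iron array 1, FIT1 (196), TPO2 (1347) and XPT1 (1843).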

How the results depend on the processing

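HSP12, HSP42, HSP82, SSA3 and SSA4 kept their fall and their call under all 19 alternatives, and HSP26 and SSA1 did not pass under any. Of 190 values of the 10 genes 179 kept direction and side of the threshold. The 10 genes have 1 probe set each and pass either filter. The mean of probe sets and the filter settings thus could not change their log2 values, which adds to this count. HSP30 reversed to -0.89 without low-iron arrays 3 and 4 and, not called, to -0.18 and -0.01 without low-iron array 3 or 4. It was called at 1.49 without low-iron arrays 1 and 2, and ranged from -0.18 to 0.72 when single arrays were left out. HSP78 lost its call in 6 alternatives. The count of the 10 genes that rose ranged from 0 to 1 and of those that fell from 5 to 5 when single arrays were left out. Other chaperones that rose ranged from 5 to 10 and that fell from 7 to 15. Rises came to 13 under quantile normalization and 12 without low-iron arrays 3 and 4, and under median centring 9 rose and 8 fell. Other Msn2/Msn4 targets that rose ranged from 0 to 2, with 2 under quantile normalization, 2 under median centring, 0 without low-iron arrays 1 and 2 and 2 without low-iron arrays 3 and 4. Among 931 values of 49 other named genes, 60 lost and 28 gained a call, and 12 changed sign, none of them called. These were MSN2 (-0.00308 with array weights, -0.16 without low-iron arrays 1 and 2, and -0.0471 to 0.102 when single arrays were left out), LAA1 (-0.0303 to 0.0535 when single arrays were left out), RIM15 (0.0274 under quantile normalization and -0.0847 to 0.0374 when single arrays were left out), SNO4 (0.13 under quantile normalization and 0.00206 without low-iron arrays 3 and 4), DHH1 (0.00201 under median centring) and TPO2 (-0.00531 without low-iron arrays 3 and 4). No scaling moved the median of all genes by over 0.1. Why these results moved was not tested. No paired analysis was possible because the labels number the arrays 1 to 8 across both conditions, so no number is shared. A test of 4 against 4 arrays limits what small changes can be seen.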
